A study of Sus scrofa with 10 samples.

Results

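LHX1, LHX2, LHX5 and LHX9 are genes of the LIM homeobox family, chosen here by name, and they are 4 of the 22452 genes counted in the 10 single-cell RNA-seq libraries of the pig medial entorhinal cortex (MEC). Each was followed across every library and every cell class, and all 4 were detected. Whole cells were captured from the fetal MEC at E50 (1 library of 3 pooled brains), at E60 (3 libraries of 1, 1 and 2 brains) and at E70 (3 libraries of 2, 1 and 1 brains), and from the adult MEC (1 library of 1 brain). Nuclei were captured at E70 and from the adult MEC (1 library of 1 brain each). For some E70 libraries the labels and the study's own table differ on whether brains were pooled, and the study gives the animals of the libraries called adult as postnatal. No treatment or genetic change is given in the labels. The libraries are called E50_1, E60_1 to E60_3, E70_1 to E70_3, E70_nc, Adult_1 and Adult_nc, where nc stands for nuclei. Replicate libraries were made of E60 and of E70 whole cells alone, and any difference that involves another stage has no replicate check.

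LIM homeobox genes encode transcription factors that carry a pair of LIM domains, which bind other proteins, and a homeodomain, which binds DNA. They fall into close pairs that arose by gene duplication. LHX1 and LHX5 are 1 such pair, and are known from Cajal-Retzius neurons of the outermost cortical layer and from inhibitory neurons of the cerebellum and the spinal cord. LHX2 and LHX9 are another pair. LHX2 is known as a selector of cortical identity in the progenitors of the dorsal telencephalon, and both LHX2 and LHX9 are known from neurons of the developing thalamus and midbrain. LIM homeodomain proteins act in complexes with the cofactor LDB1, and the LMO proteins compete with them for it.

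The homeobox, the stretch of each gene that encodes the homeodomain, is shown for LHX2, LHX9 and LHX5 because it is where LHX2 and LHX9 are most easily told to be alike and LHX5, of the other pair, to be different. In the RefSeq annotation of Sscrofa11.1, LHX1 lies on chromosome 12. LHX2 lies on chromosome 1 from 264900931 to 264920888, with its homeobox in exons 4 and 5, from 264909939 to 264920202. LHX5 lies on chromosome 14 from 38446781 to 38456460, with its homeobox in exons 3 and 4, from 38450283 to 38451178. LHX9 lies on chromosome 10 from 20742323 to 20764006, with its homeobox in exons 4 and 5, from 20758294 to 20759666. In LHX2, LHX5 and LHX9 an intron lies within the homeobox. All 4 genes are on the plus strand, and the coding bases are given 5′ to 3′. Capitals mark the conserved codons of the third helix, the helix that lies in the major groove of the DNA, which were used to find the homeobox.
LHX2: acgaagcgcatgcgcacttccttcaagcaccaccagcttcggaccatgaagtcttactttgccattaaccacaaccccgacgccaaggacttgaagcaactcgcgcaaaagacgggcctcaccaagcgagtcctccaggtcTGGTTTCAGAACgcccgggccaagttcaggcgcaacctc
LHX5: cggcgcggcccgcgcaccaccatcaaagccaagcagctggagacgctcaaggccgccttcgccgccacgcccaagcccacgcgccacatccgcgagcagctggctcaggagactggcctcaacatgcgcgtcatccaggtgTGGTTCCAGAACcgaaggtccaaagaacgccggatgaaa
LHX9: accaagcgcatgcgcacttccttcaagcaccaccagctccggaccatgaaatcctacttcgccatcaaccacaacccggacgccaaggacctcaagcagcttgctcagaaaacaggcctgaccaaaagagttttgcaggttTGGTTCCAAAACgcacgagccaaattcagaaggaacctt
Of the 180 bases, 149 (82.8%) were the same in LHX2 and LHX9, and all 60 codons of this pair encoded the same residue. LHX5 shared 104 bases and 29 of 60 residues with each of them. The longest run of bases that the annotated transcripts shared was 35 in LHX2 and LHX9 and 17 between LHX5 and either of them. LHX9 had 5 annotated transcripts, of which 4 held the whole homeobox. The UMIs were counted per gene and do not tell these transcripts apart.

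A UMI is the tag of a single captured mRNA molecule. The total number of UMIs per library ranged from 2336865 in Adult_nc to 55755512 in E50_1, and the median per cell was 690 in Adult_nc, 2616 in E70_nc and 4251 to 9403 in the whole cell libraries. The libraries held 493 to 8171 cells. Levels are given in CPM, the usual scaling of counts to a fixed total, in which a gene's UMIs are divided by all UMIs of the same cells, with exact Poisson 95% intervals (CI) that cover counting error only. CPM were not compared between genes, since the counts are not given per length and depend on how well the 3′ end of each gene is annotated. In CPM summed over a library, fewer cells of a type and less RNA per cell cannot be told apart. Of the cell barcodes, 27328 were found in 1 library, 446 in 2 and 3 in 3.

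E60_1 and E60_2 differed from the other fetal libraries in the genes that mark the telencephalon, the part of the brain that holds the MEC. EMX1 was at 0.48 and 0.51 CPM in E60_1 and E60_2, against 8.39 to 40.6 CPM in the other fetal whole cell libraries. TBR1 was at 0.02 and 0.04 CPM against 10.2 to 18.1 CPM. EN2, a marker of the midbrain and hindbrain, was at 37.4 and 14.0 CPM in these libraries and at 24.1 CPM in E50_1, but at 0 to 0.73 CPM in the remaining fetal libraries. EN2 was 1 of 8 midbrain genes looked at, and not all went with it. PAX3 was highest in E60_2 (77.8 CPM) and E50_1 (24.1 CPM). By contrast, PAX7 and GATA3 were at 27.9 to 37.7 CPM in E70_1 and E70_2. Summed over the 8 genes, the level was 68.5 and 163 CPM in E60_1 and E60_2 and 99.8 CPM in E50_1. It was 102 and 68.8 CPM in E70_1 and E70_2, and 13.9 to 25.6 CPM in the remaining fetal libraries. E60_1 and E60_2 held 2 and 1 excitatory-like cells, against 1430 in E60_3. E50_1 held both the telencephalic genes and EN2. A second set that stood apart was E70_1 and E70_2, in which LHX9 was found at similar levels in every cell class, as described below.

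LHX2 had UMIs in all 10 libraries. Its levels were 93.6 CPM in E60_3 (CI 90.0-97.2), 84.2 in E70_3 (80.9-87.7), 65.9 in E50_1 (63.8-68.0), 42.2 in E70_2 (37.5-47.3), 40.9 in E70_1 (36.0-46.2), 22.7 in E70_nc (17.7-28.6), 16.2 in Adult_1 (13.4-19.4), 6.42 in Adult_nc (3.59-10.6), 3.53 in E60_1 (3.00-4.14) and 1.89 in E60_2 (1.39-2.502). The intervals of neighbours in this order overlapped for E70_2 and E70_1, for E70_nc and Adult_1 and for Adult_nc and E60_1. LHX2 was thus at its highest and at its lowest in libraries of the same stage, E60, and the 2 low libraries were those with few telencephalic transcripts. A UMI of LHX2 was found in 45.03% of the cells of E60_3, 39.9% of E70_3 and 27.9% of E50_1, but in 1.27% and 1.18% of the cells of E60_1 and E60_2. When each cell was thinned to 1000 UMIs, these shares were 8.35%, 7.31%, 6.88%, 0.294% and 0.201%.

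LHX9 was at 105 CPM in E50_1 (CI 102-107), from 5832 UMIs, the highest level of this gene in any library. It was followed by 30.4 CPM in E70_2 (26.4-34.7), 24.5 in E70_1 (20.8-28.7), 5.44 in E60_1 (4.77-6.17), 4.71 in Adult_nc (2.35-8.42), 3.77 in E60_2 (3.06-4.61), 3.72 in Adult_1 (2.45-5.41), 2.31 in E60_3 (1.79-2.94), 1.94 in E70_nc (0.713-4.23) and 1.94 in E70_3 (1.46-2.53). From E70_2 downwards, neighbours in this order had overlapping intervals, except E70_1 and E60_1. In E50_1, 92.3% of the LHX9 UMIs were in cells with at least 3 of them. In E70_1 and E70_2 this share was 28.4% and 12.8%, and the remaining UMIs were spread over cells with 1 or 2. LHX9 was thus held by cells with many molecules each at E50, and by cells with few molecules each in these E70 libraries.

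LHX1 was at 21.2 CPM in E50_1 (CI 19.97-22.4), 16.4 in E60_3 (14.99-18.0), 9.18 in E60_1 (8.30-10.1), 6.91 in E70_2 (5.09-9.16), 6.33 in Adult_1 (4.63-8.44), 4.28 in E70_1 (2.82-6.22), 3.46 in E60_2 (2.77-4.26) and 3.27 in E70_3 (2.63-4.01). Below E60_1, neighbours in this order had overlapping intervals, and so did E60_1 and E70_2. No LHX1 UMI was found in 858 E70 nuclei or in 2552 adult nuclei, which at the floor of 3 counts allows up to 0.350% and 0.118% of nuclei with a UMI, and up to 0.971 and 1.28 CPM over the libraries. With medians of 2616 and 690 UMIs per nucleus, this limits the nuclei with a UMI and not those that express LHX1. In E60_3 only 49 of 2696 cells (1.82%) held LHX1, but with 9.59 UMIs each, and 96.6% of the UMIs were in cells with at least 3. In E60_1, by contrast, 300 cells (3.67%) held LHX1 at 1.33 UMIs each. The microglia-like cells, described below and taken as the background of free RNA, held LHX1 at 2.60 CPM in E60_1 (16 UMIs) and 6.76 CPM in E60_2 (19 UMIs), the latter above the level of its whole library, so some of the cells with 1 UMI may hold free RNA, whose part was not tested.

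LHX5 had the fewest UMIs of the members, 422 in all. It was at 4.84 CPM in E50_1 (CI 4.28-5.46), 2.17 in E60_3 (1.66-2.78) and 0.963 in E60_1 (0.694-1.30), and at 0.428 to 0.747 CPM in the other libraries but E70_nc, which held none (up to 0.971 CPM at the floor of 3 counts). Below E60_3 all intervals overlapped with that of their neighbour. E50_1 and E60_3 were thus the 2 libraries with the most LHX5 and also those with the most LHX1.

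**Figure D1:**
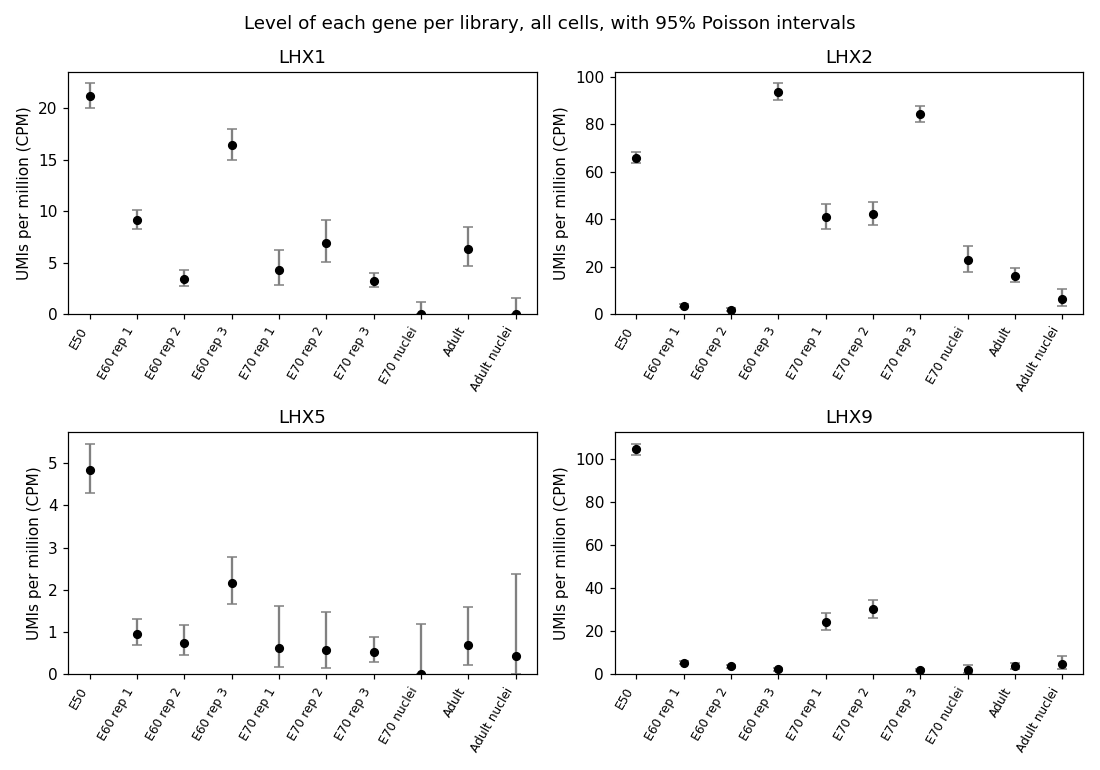
Level of each gene in each of the 10 libraries, as CPM over all cells on a linear axis, with exact Poisson 95% intervals that cover counting error only and an axis of its own for each gene. LHX1, LHX5 and LHX9 are highest in E50 (21.2, 4.84 and 105 CPM), and LHX2 is at 93.6 and 84.2 CPM in E60 and E70 replicate 3 and at 3.53 and 1.89 CPM in E60 replicates 1 and 2.

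To find the cells behind these levels, 4437 erythroid-like and vascular-like cells were set aside and the remaining 23792 cells were grouped into 42 clusters. The members and all marker genes were kept out of the genes used for clustering. Clusters were called like a cell class by marker genes, and a cluster is described by the genes with the highest fold over all other cells. Levels in clusters are a description, with no test, because a cell's cluster and its genes come from the same counts.

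LHX1 was at its highest in a cluster of 70 cells, at 365 CPM (CI 338-394), with a UMI in 88.6% of the cells. The genes that led the cluster were NDNF, CALB2, ENSSSCG00000011147, LHX1 itself and RELN, which encodes the secreted protein that Cajal-Retzius neurons are known for. All 5 markers of Cajal-Retzius neurons were found there, with RELN at 4505 CPM, CALB2 at 1693, NDNF at 892, EBF3 at 112 and TP73 at 27.6, and the cells are called Cajal-Retzius-like. They held 3.55 times the median number of UMIs of their libraries, and none was called a doublet. Few doublets were called in some libraries, with 9 of 2696 cells in E60_3 and 6 of 3120 in E70_3, against 139 of 5506 in E50_1. The Cajal-Retzius-like cells came from 8 libraries, with 33 cells from E60_3, 12 from E50_1 and 9 from E70_3.

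In each library of whole cells with at least 5 of them, the Cajal-Retzius-like cells held LHX1. The level was 410 CPM in E60_3 (CI 372-452, 33 of 33 cells), 364 in E70_3 (290-449, 9 of 9), 323 in E50_1 (242-421, 11 of 12) and 249 in E70_2 (183-331, 5 of 5). Against this, the 5 E70 nuclei of the cluster held no LHX1 (up to 120.1 CPM at the floor of 3 counts). These few cells held 87.7% of all LHX1 UMIs of E60_3, 93.4% of E70_3 and 97.9% of E70_2, but only 4.58% of E50_1. In E60_3 and E70_3 no LHX1 was found in the microglia-like cells (143 and 100 cells), which are taken as the background of free RNA.

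LHX5 was highest in the same cluster, at 39.7 CPM (CI 31.1-50.04), with a UMI in 60% of its cells. By library it was at 71.7 CPM in E50_1 (12 UMIs, CI 37.0-125), 41.8 in E60_3 (42 UMIs, 30.1-56.5), 29.9 in E70_3 (7 UMIs, 12.0-61.7) and 21.2 in E70_2 (4 UMIs, 5.78-54.3), and these intervals overlapped. The Cajal-Retzius-like cells held 67.7% of the LHX5 UMIs of E60_3. LHX5 was at 0.315 CPM in all microglia-like cells, from 5 UMIs. Of the other members, LHX2 was at 42.5 CPM and LHX9 at 23.2 CPM in the cluster.

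The next highest level of LHX1, 265 CPM (CI 241-291), was in 226 cells led by CALB1, CA8, EBF1, ARHGEF33 and SPOCK3. These cells held the Purkinje cell markers CALB1 at 2295 CPM, PCP4 at 1425, CA8 at 1046, ITPR1 at 736 and SKOR2 at 64.8, but PCP2 at only 1.19, with GAD1 at 148 CPM, and are called Purkinje-like, although Purkinje cells belong to the cerebellum and the labels name the MEC. All of them came from E50_1 (134 cells) and E60_1 (92 cells), 2 of the 3 libraries with the most EN2. LHX1 was at 261 CPM in E50_1 (CI 234-290) and 282 CPM in E60_1 (229-345), so the libraries did not differ beyond counting error. In contrast to the Cajal-Retzius-like cells, LHX5 was low in the Purkinje-like cells, at 4.16 CPM from 7 UMIs. LHX1 and LHX5 thus shared the Cajal-Retzius-like cluster as their highest, while the Purkinje-like cells held 19.5% of the LHX1 UMIs and 1.74% of the LHX5 UMIs of all kept cells.

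Another cluster with LHX1 held 1173 cells led by PENK, ENSSSCG00000013387, ENSSSCG00000026512, TAC1 and PRPH. It had GAD1 at 98.8 CPM and GAD2 at 117, which mark inhibitory neurons, but also SLC17A6, the vesicular glutamate transporter, at 66.7. LHX1 was at 52.5 CPM (CI 48.3-56.9), LHX5 at 11.6 (9.65-13.7) and LHX9 at 45.5 (41.6-49.7). Its cells came from E60_1 (605), E50_1 (452) and E60_2 (88), with 28 from all other libraries. LHX1 was at 70.7 CPM in E50_1 (CI 64.5-77.3), 28.2 in E60_1 (22.7-34.5) and 11.8 in E60_2 (4.76-24.4). Of the LHX5 UMIs of all kept cells, 32.1% were in this cluster. LHX1 was also at 42.3 CPM (CI 33.0-53.4) in 263 cells led by CBLN1, SCT and ZIC4, which came from E50_1 and E60_1 alone. It was at 34.4 CPM in 648 cells led by CALB1, TAC1, CYP26B1, PCP4 and ADIRF, of which 436 came from E60_1 and 168 from E60_2. These cells were classed as astrocyte and radial glia-like, but the interneuron markers fitted them nearly as well (mean standardized expression 0.795 against 0.899). In 34 of the 42 clusters LHX1 was below 10 CPM.

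LHX9 was concentrated in a cluster of 872 cells, where it reached 781 CPM (CI 759-803) and was found in 67.9% of the cells. The cluster held 73.2% of the LHX9 UMIs of all kept cells. It was led by LHX9, TFAP2D, POU4F2, NDST4 and TFAP2B. POU4F2 and the TFAP2 genes encode further transcription factors, and TCF7L2, known from neurons of the thalamus and midbrain, was at 1018 CPM. Of its cells, 780 came from E50_1, 55 from E60_1 and 23 from E60_2. LHX9 was at 828 CPM in E50_1 (CI 805-852) and 218 CPM in E60_1 (157-294), and the 23 cells of E60_2 held none (up to 24.7 CPM at the floor of 3 counts). The cluster was left unnamed by a rule set after its values were seen, since it held more SLC17A6 (148 CPM) than GAD1 (90.0 CPM) although the interneuron markers fitted it best.

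LHX2 was highest in the same cluster, at 273 CPM (CI 260-286) from 1674 UMIs, and in E50_1 this cluster held 45.2% of all LHX2 and 81.4% of all LHX9 UMIs. The cells of the cluster were not alike. The 521 cells with at least 3 LHX9 UMIs held LHX2 at 368 CPM, SLC17A6 at 193, TCF7L2 at 1543 and POU4F2 at 106, while GAD1 was at 8.99 CPM and GAD2 at 14.1. The 280 cells with no LHX9 UMI held LHX2 at 43.4 CPM, SLC17A6 at 33.5, TCF7L2 at 23.1 and POU4F2 at 2.89, while GAD1 was at 284 CPM and GAD2 at 575. LHX1 and LHX5 went with the latter cells. LHX1 was at 82.7 CPM and LHX5 at 45.7 CPM in the cells without LHX9, but at 1.54 and 1.80 CPM in the cells with at least 3 UMIs. The cells without LHX9 had a median of 5936 UMIs and those with at least 3 LHX9 UMIs one of 7134. The cluster thus held cells with SLC17A6, LHX2 and LHX9 beside cells with GAD1, GAD2, LHX1 and LHX5.

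**Figure D2:**
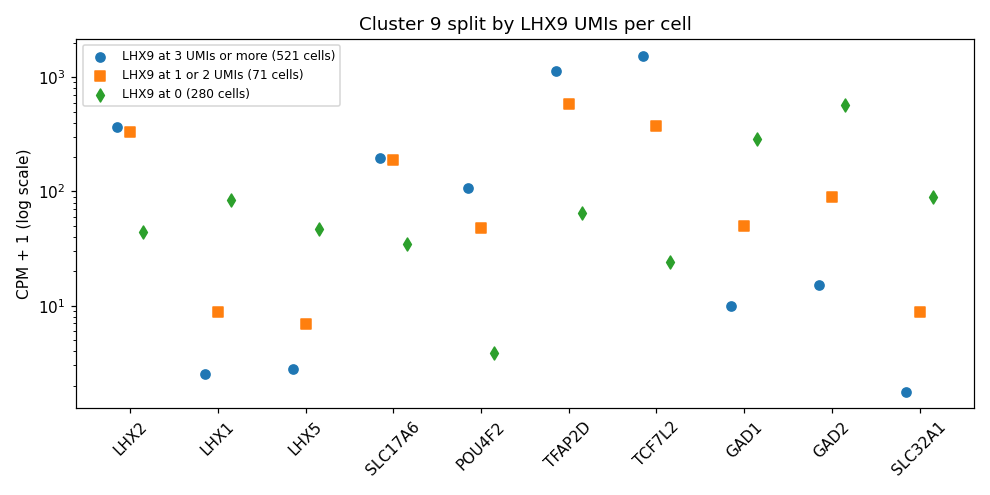
Levels (CPM) of LHX1, LHX2, LHX5 and of transmitter and other marker genes in the cells of the LHX9 cluster, split by the number of LHX9 UMIs in the cell (521 cells with at least 3, 71 with 1 or 2, 280 with 0). LHX2 is at 368 CPM in the first set and 43.4 CPM in the last, and LHX1 at 1.54 and 82.7 CPM.

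In the PENK and TAC1 cluster the cells with the most LHX1 and those with the most LHX9 also differed. In its 78 cells with at least 3 LHX1 UMIs, LHX5 was at 29.96 CPM and GAD1 at 185, while LHX9 and LHX2 were both at 4.86 CPM. These cells were not without SLC17A6, which was at 45.3 CPM and in 28.2% of them, against 73.2 CPM and 29.2% in the 953 cells with no LHX1 UMI. In its 55 cells with at least 3 LHX9 UMIs, LHX2 was at 112 CPM and SLC17A6 at 176, while LHX1 and GAD1 were both at 3.45 CPM and no LHX5 was found. These cells were chosen by the number of UMIs of LHX1 or LHX9, so deeper cells were more often chosen, and the values of the other genes are a description with no test.

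Outside this cluster LHX9 was low in most cells, and in 29 of the 42 clusters it was below 10 CPM. The next highest levels were 46.0 CPM (CI 37.7-55.6) in 436 cells led by RCVRN, GNB3, PRPH2, PDC and SIX6, genes known from photoreceptors and the retina, and the 45.5 CPM of the PENK and TAC1 cluster. Of the 436 cells, 268 were nuclei of Adult_nc, in which RCVRN was at only 5.14 CPM over the whole library. With clusters found without batch correction, the cells led by SIX6, RCVRN and GNB3 numbered 279, and 0 of them came from Adult_nc. In the cluster of 436 cells LHX9 was at 97.1 CPM in E50_1 (CI 71.1-130), 47.4 in E70_1 (34.4-63.6), 28.7 in E70_3 (16.4-46.6) and 3.05 in Adult_nc (1 UMI in 268 nuclei).

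In E70_1 and E70_2 LHX9 was found in every cell class. It was at 34.2 and 53.6 CPM in the astrocyte and radial glia-like cells of E70_1 and E70_2, 19.8 and 29.5 in the excitatory-like cells, 17.6 and 29.1 in the interneuron-like cells and 22.9 and 33.5 in the erythroid-like cells. The microglia-like cells held it at 21.1 CPM (6 UMIs in 20 cells, CI 7.74-45.9) and 27.5 CPM (6 UMIs in 19 cells, CI 10.1-59.8). In E70_3 the same 5 classes held 0 to 2.22 CPM. Of the other LIM homeobox genes, LMX1A was at 137 CPM in the microglia-like cells of both libraries, against 4.90 CPM in those of E70_3. LHX6 was at 10.6 and 45.8 CPM in these cells of E70_1 and E70_2. LMX1B and ISL1 stayed low, at 1.11 and 1.58 CPM in E70_1, 1.01 and 0 CPM in E70_2, and 0.467 and 1.40 CPM in E70_3, over all cells. The level of LHX9 in each of these classes thus lay within the interval of the microglia-like cells, which should lack the gene, and the cause was not tested.

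LHX2 was spread over the progenitors and excitatory neurons of the telencephalic libraries. Its highest level after the LHX9 cluster was 223 CPM (CI 211-235) in 656 radial glia-like cells led by SLCO1C1, ENSSSCG00000012101, ENSSSCG00000038192, HGF and FGL2. By library, LHX2 was at 276 CPM in E60_3 (CI 253-300), 237 in E70_3 (216-260), 231 in E70_1 (143-352), 185 in E50_1 (164-207), 91.0 in E70_2 (54.8-142) and 43.8 in E70_nc (14.2-102). The 16 cells of E60_2 in this cluster held none (up to 27.8 CPM at the floor of 3 counts). A cluster of 152 cells led by SLCO1C1, ENSSSCG00000012101, RYR3, ABI3BP and ENSSSCG00000038192 followed at 147 CPM (CI 134-160). This cluster was classed as excitatory-like, the list that fitted it best, although its leading genes were shared with the radial glia-like cells. These cells held 2.37 times the median UMIs of their libraries, and 36 of them were called doublets, the most of any cluster named here.

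Among the intermediate progenitor (IP)-like cells, those led by EOMES and NEUROD4 held LHX2 at 120 CPM (CI 107-134), while the 283 IP-like cells with EN2 at 70.5 CPM held 3.32 CPM. The IP-like cells with EOMES held 182 CPM in E60_3 (CI 152-216), 138 in E70_3 (103-181), 92.1 in E70_2 (49.1-158), 88.8 in E50_1 (73.2-107) and 54.0 in E70_1 (19.8-117). The cycling radial glia-like cells, led by PIMREG, CCNB1 and UBE2C, came from both kinds of library and parted by library. In these cells LHX2 was at 154 CPM in E70_3 (CI 131-180), 147 in E60_3 (129-167) and 101 in E50_1 (90.5-112), but at 1.87 in E60_1 (3 UMIs in 322 cells, CI 0.385-5.45) and 1.04 in E60_2 (2 UMIs in 335 cells, CI 0.126-3.76). Among the clusters of excitatory-like cells LHX2 ranged from 9.97 CPM in cells with CRYM and FEZF2 to 104 CPM, leaving out the SLCO1C1-led cluster of high UMIs, with 24.9 CPM in a cluster mainly of nuclei.

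**Figure D3:**
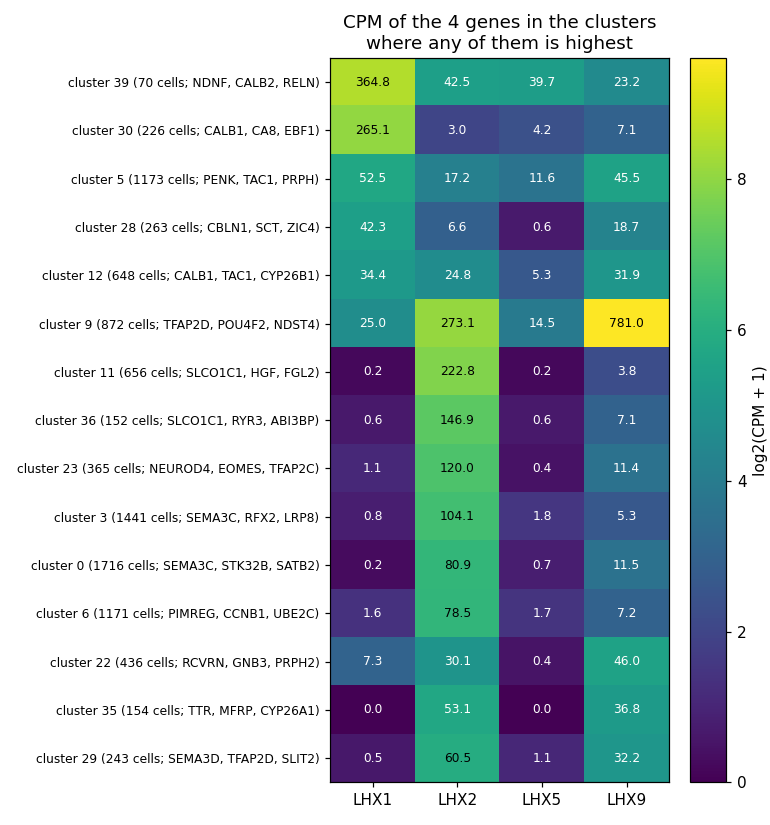
Levels of the 4 genes (CPM, printed in each cell and coloured as log2(CPM + 1)) in 15 of the 42 clusters, each named by its number of cells and 3 leading genes. Read down the columns, LHX1 and LHX5 are highest in the NDNF, CALB2 and RELN cells (365 and 39.7 CPM) and LHX2 and LHX9 in the TFAP2D and POU4F2 cells (273 and 781 CPM).

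Levels of LHX2 were then compared between cell classes within libraries, so that each library was its own control. Of the 8 fetal libraries 6 held at least 20 cells of the classes compared, and E60_1 and E60_2 did not, for want of excitatory-like cells. In the excitatory-like cells LHX2 was at 50.9 CPM in E50_1, 110 in E60_3, 58.4 in E70_1, 52.2 in E70_2, 85.2 in E70_3 and 24.3 in E70_nc. In the astrocyte and radial glia-like cells it was at 76.4, 209, 103, 81.3, 178 and 35.3 CPM in the same order. In the interneuron-like cells it was at 13.4, 24.3, 12.8, 6.33, 9.42 and 11.6 CPM. The microglia-like cells of the 5 whole cell libraries, taken as the background of free RNA, held 18.7, 33.8, 7.03, 0 and 8.83 CPM of LHX2. Whether all of this was free RNA was not tested. The level in the interneuron-like cells was below the interval of the microglia-like cells in E60_3 (CI 26.6-42.3) and within it in E50_1 (12.4-27.0), E70_1 (0.852-25.4), E70_2 (0-16.9) and E70_3 (4.04-16.8), so it was not above this background beyond counting error in any of them.

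LHX2 was higher in astrocyte and radial glia-like than in excitatory-like cells in 6 of 6 libraries, by 0.78 ± 0.19 on the log2 scale (SD, n = 6). The exact two-sided sign-flip permutation test gave p = 0.03125, the smallest it can give with 6 libraries, and 0.0833 after Benjamini-Hochberg adjustment over the 8 differences tested, so the difference did not pass 0.05. LHX2 was lower in interneuron-like than in excitatory-like cells in 6 of 6 libraries, by −2.20 ± 0.77 (SD, n = 6), with the same exact p = 0.03125 and adjusted p = 0.0833. Both adjusted p depend on LHX1 in this pair, which had the same exact p but rests largely on the pseudocount. At a pseudocount of 0.1 both LHX2 differences had an adjusted p of 0.125 by the exact test. The means of both differences kept their direction under all alternatives tried, from 0.33 to 0.90 and from −2.81 to −1.94. For the first, single libraries did not always do so. Without batch correction 5 of 6 libraries were higher (0.33 ± 1.16, SD, adjusted p = 0.679 by the exact test). With each cell thinned to 1000 UMIs 4 of 6 were (0.45 ± 0.56, SD, adjusted p = 0.167 by the exact test). The second was lower in 6 of 6 libraries in both settings. Without the SLCO1C1-led cluster of high UMIs the first difference was 0.89 and the second −2.10 (adjusted p = 0.0833 each by the exact test). The interneuron-like class was not of the same make-up in each library. In E50_1, 586 of its 613 cells belonged to the PENK and TAC1 or the Purkinje-like cluster, in which DLX1, DLX2 and DLX5 were each below 10 CPM, against 6 of 260 in E60_3, 15 of 312 in E70_3 and 0 in E70_1, E70_2 and E70_nc.

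For the other members these classes gave little. LHX9 differed by 0.29 between astrocyte and radial glia-like and excitatory-like cells and by 0.38 between interneuron-like and excitatory-like cells, with adjusted p of 0.429 and 0.375 by the same exact test, and the sign of both depended on the settings. LHX1 was at 3 UMIs or fewer in both classes in 4 of the 6 libraries for each pair, and LHX5 in 3 of 6, so that their log2 differences rest largely on the pseudocount and are not read. In E50_1 the interneuron-like cells held 825 LHX1 UMIs (100 CPM) against 27 (1.62 CPM) in the excitatory-like cells, while in E60_3 they held 12 (5.83 CPM) against 36 (2.83 CPM). The high level in E50_1 was that of the PENK and TAC1 cells (474 LHX1 UMIs) and the Purkinje-like cells (351). None of the 8 adjusted p was under 0.05.

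**Figure D4:**
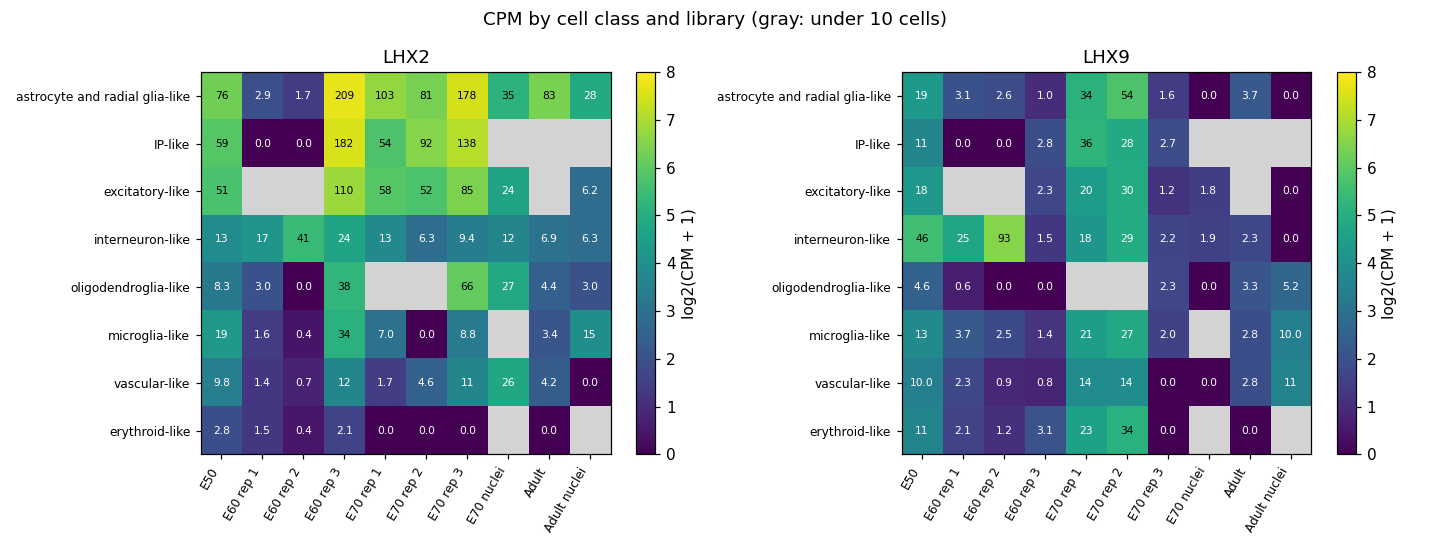
Levels (CPM) of members, LHX2 among them, by cell class and library. LHX2 in the 6 fetal libraries compared is at 35.3 to 209 CPM in astrocyte and radial glia-like cells, 24.3 to 110 CPM in excitatory-like cells and 6.33 to 24.3 CPM in interneuron-like cells.

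E60 and E70 were the only stages with replicates and were compared over libraries, with the UMIs of all kept cells summed. LHX1 was at 12.0, 5.94 and 19.7 CPM in E60_1, E60_2 and E60_3, and at 4.97, 7.68 and 3.57 CPM in E70_1, E70_2 and E70_3, and the stages overlapped. The log2 fold change of E70 over E60 was −1.32 (SE 0.50, adjusted p = 0.154 by edgeR's quasi-likelihood test). LHX5 was at 1.19, 1.03 and 2.61 CPM at E60 (37, 12 and 62 UMIs) and 0.737, 0.640 and 0.595 CPM at E70 (4, 4 and 15 UMIs). Each E70 library was thus below each E60 library. This was so for 9.92% of the genes with at least 10 UMIs, and for 14.0% each E70 library was above each E60 library. The log2 fold change of LHX5 was −1.42 (SE 0.54, adjusted p = 0.154). By the same test 0.0% of the 16359 genes tested were called higher and 0.0% lower at an adjusted p under 0.05, while 4655 (28.5%) had an unadjusted p under 0.05, LHX1 (0.0316) and LHX5 (0.0322) among them. DESeq2 called 9.23% of the genes higher and 5.96% lower, but no member.

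LHX2 was at 4.38, 3.36 and 111 CPM at E60 and at 47.3, 46.6 and 92.2 CPM at E70, so the E60 libraries lay on both sides of all E70 libraries. Its log2 fold change was 0.66 (SE 1.14, adjusted p = 0.711). Without E60_1 and E60_2 it was −0.82 (adjusted p = 0.942), and without E60_3 it was 3.76 (adjusted p = 0.0137), so the choice of E60 libraries set the sign. LHX9 was at 6.73, 7.15 and 2.53 CPM at E60 and at 25.8, 31.4 and 2.14 CPM at E70, with a log2 fold change of 1.65 (SE 0.90, adjusted p = 0.250). The higher E70 values were those of E70_1 and E70_2, in which LHX9 was found in all classes. Without both of them its log2 fold change was −1.53 (adjusted p = 0.901 by edgeR), and without E60_1 and E60_2 it was 2.94 (adjusted p = 0.942), so the choice of E70 libraries set its sign. Without E60_1 and E60_2, LHX1 was at −1.87 and LHX5 at −1.996 (adjusted p = 0.942 each), and without E70_1 and E70_2 at −1.89 and −1.52 (adjusted p = 0.901 each).

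Library numbers given in the study were read as sequencing pools, and E60_1 shared one with E70_1 and E60_3 one with E70_3. Within these pools the log2 difference of E70 over E60 was −1.25 and −2.43 for LHX1, −0.63 and −1.97 for LHX5, 3.41 and −0.26 for LHX2 and 1.92 and −0.23 for LHX9. LHX1 and LHX5 were lower at E70 in both pools, while LHX2 and LHX9 changed sign between them. For LHX5, E70_1 and E70_3 held only 4 and 15 UMIs. Over all cells the interval of E70_1 (0.173-1.62 CPM) held the level of E60_1 (0.963 CPM), so in that pool LHX5 did not differ beyond counting error. In E60_3, the library with the most of both genes, 412 of the 470 LHX1 UMIs and 42 of the 62 LHX5 UMIs were in the 33 Cajal-Retzius-like cells, and E70_3 held 9 such cells. The part of the number of these cells in the stage difference was not tested.

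**Figure D5:**
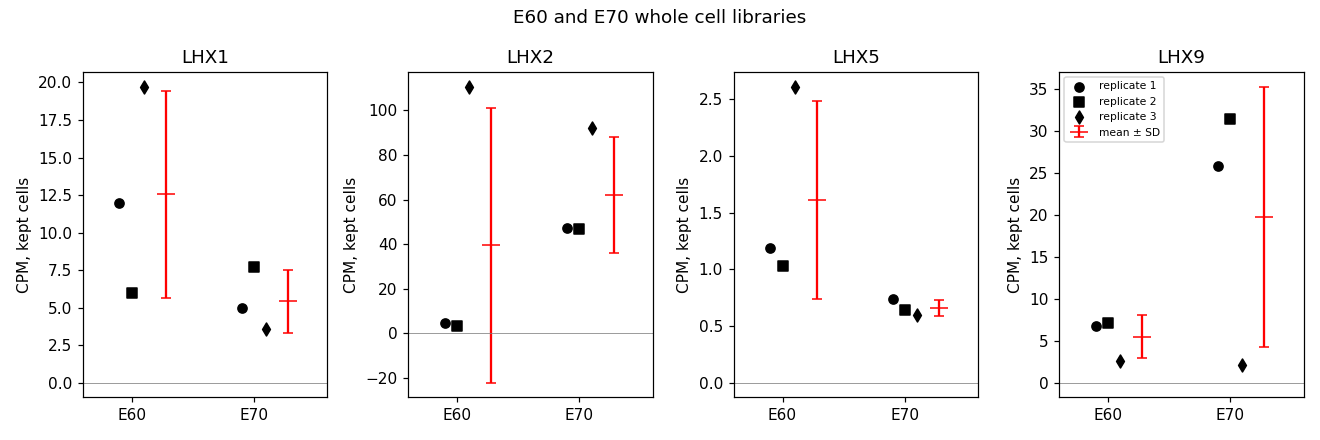
Level (CPM, kept cells) of each gene in the 3 E60 and 3 E70 whole cell libraries, with the mean and SD of each stage (n = 3). E60 replicate 3 has LHX2 at 111 CPM while replicates 1 and 2 have 4.38 and 3.36 CPM, and for LHX5 alone do the stages not overlap. LHX5 has 4, 4 and 15 UMIs in E70 replicates 1 to 3. Of the genes with at least 10 UMIs, 9.92% lie wholly lower and 14.0% wholly higher at E70.

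Of the 8 other LIM homeobox genes 5 had enough counts to be tested between E60 and E70, and none passed. LMX1A was 3.60 higher on the log2 scale at E70, LHX6 4.20 higher and LHX4 2.46 higher (adjusted p = 0.139 each by edgeR), and in the E70 group all 3 were highest in E70_1 or E70_2. LHX6, which marks interneurons of the medial ganglionic eminence, was at 42.8 and 61.9 CPM in E70_1 and E70_2, against 2.44 to 7.22 CPM in the other fetal whole cell libraries. LMX1B (−0.91) and ISL1 (0.15) had adjusted p of 0.368 and 0.932. LHX3, LHX8 and ISL2, with 11, 61 and 225 UMIs in all libraries, were too low to be tested. The median log2 fold change was 2.46 over these 5 genes and −0.03 over all genes tested.

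Of the 10 cofactor and LMO genes 9 were tested and none passed, with a median log2 fold change of −0.37. LDB1, the common cofactor of LIM homeodomain proteins, was found in all libraries, at 17.7 to 25.9 CPM in the whole cells and at 1.62 and 13.7 CPM in E70_nc and Adult_nc. LDB2 was 1.00 higher on the log2 scale at E70 (adjusted p = 0.139 by edgeR). SSBP4, of the SSBP proteins that bind LDB1, had a log2 fold change of −1.59 (adjusted p = 0.139), and LMO1 one of −1.76 (adjusted p = 0.169). LMO4, an LMO gene of cortical neurons, was at 154 CPM in E60_3 and 221 CPM in E70_3, against 60.5 and 72.7 CPM in E60_1 and E60_2, but did not differ between the stages (0.46, adjusted p = 0.535). LMO2 was too low to be tested.

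Within E50_1 the members of a pair were often found in the same cells. Of 473 cells with LHX1 and 212 with LHX5, 98 held both, which was 20.7% of the LHX1 cells and 46.2% of the LHX5 cells, while LHX1 was found in 7.08% of the cells without LHX5. Of 1537 cells with LHX2 and 1001 with LHX9, 553 held both (35.98% and 55.2%), while LHX2 was found in 21.8% of the cells without LHX9. Across the pairs, 44 cells held LHX1 and LHX9 (9.30% of the LHX1 cells), while LHX9 was found in 19.0% of the cells without LHX1. LHX1 and LHX2 shared 49 cells (10.4% of the LHX1 cells), while LHX2 was found in 29.6% of the cells without LHX1. Both missed molecules and free RNA bear on these shares, and neither was measured per cell. In E60_3, 23 cells held both LHX1 and LHX5, which was 46.9% of the LHX1 cells and 59.0% of the LHX5 cells. LHX2 was found in 28.7% of the LHX9 cells of E60_1 (39 cells) against 0.809% of its other cells, and in 29.2% of those of E60_2 (19 cells) against 0.644%. This was not found in every library. In E60_3 LHX2 was in 44.8% of the LHX9 cells and 45.03% of the others, in E70_3 in 22.2% and 40.1%, and in E60_2 no cell held both LHX1 and LHX5. Across the pairs, 13 cells of E60_3 held LHX1 and LHX9, which was 26.5% of the LHX1 cells, while LHX9 was found in 1.70% of the others.

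The genes with the pattern most like each member were found by Pearson's r of log2(CPM + 1) over 137 points, each a cluster in a library with at least 20 cells, among 15722 genes. The points share libraries, depth and clustering, and the values are a description. LHX1 was most like PCP4 (0.750), CBLN1 (0.717), INA (0.699), EBF3 (0.692) and RELL2 (0.686). Among these, PCP4 was a listed marker of Purkinje cells, CBLN1 of cerebellar granule cells and EBF3 of Cajal-Retzius neurons. LHX5 was most like LHX1 (0.651), RELL2 (0.650), ENSSSCG00000016219 (0.579), NEFL (0.572) and INA (0.567). LHX2 was most like EMX2 (0.759), DMRTA2 (0.714), FEZF2 (0.689), JAKMIP1 (0.683) and EMX1 (0.661), of which EMX1, EMX2, DMRTA2 and FEZF2 are transcription factors of the dorsal telencephalon. LHX9 was most like COLEC11 (0.658), TTC9B (0.636), POU4F2 (0.628), TUBB3 (0.605) and PELI3 (0.602). Between the members, r was 0.651 for LHX1 and LHX5, 0.368 for LHX2 and LHX9, 0.355 for LHX1 and LHX9, 0.377 for LHX5 and LHX9, 0.0950 for LHX2 and LHX5 and −0.0456 for LHX1 and LHX2.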

How the data were processed

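Cells and nuclei from the pig MEC were captured and sequenced with the 10X Genomics version 2 chemistry. Per the labels and the study's methods, the authors mapped reads to Sscrofa11.1 with Cell Ranger (2.20 in the labels), with introns included, and deposited raw UMI counts per gene and cell after Cell Ranger's cell calling. Counts were used as deposited. Of 22452 genes, 7482 were named by Ensembl identifier, of which 987 matched a symbol.

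Counts were scaled to 10000 per cell and log-transformed. 3000 variable genes, without the members and marker genes, gave 50 principal components, which were corrected between libraries by mutual nearest neighbours (20 neighbours) and clustered by Louvain (resolution 1.6) in Python 3.11.15 with scikit-learn 1.9.0 and igraph 0.11.9. A cluster was named by the marker list with the highest standardized expression if at least 3 markers were detected and its leading genes did not go against the name. Clusters whose SLC17A6 exceeded GAD1 were not called interneuron-like, a rule set after the data were seen. Doublets were called by Scrublet (scanpy 1.11.5, 183 cells, 0.648%) and were not removed. Of these, 139 were in E50_1 and 0 in E60_1 and E60_2.

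E60 and E70 were compared with edgeR 4.0.16 (quasi-likelihood, TMM, R 4.3.3) on counts summed per library. Classes were compared by an exact sign-flip permutation test over libraries on log2 CPM (pseudocount 0.5 UMI), with at least 20 cells of each class. Adjustment was by Benjamini-Hochberg. The labels do not say that libraries came from separate animals throughout, so p-values measure the spread between libraries only. In counts simulated for the comparison of E60 and E70, edgeR recovered 181 of 200 genes with a 4-fold change and called 15 others among 16359. The simulated libraries of a stage shared 1 mean per gene, with the same fixed spread for all genes. The real libraries of a stage differed far more for some genes, with LHX2 at 3.36 to 111 CPM at E60. The simulation therefore does not give the power of the real comparison. Each member is named with its 3 highest clusters (at least 30 cells and 10 UMIs) and its 5 most alike genes (at least 200 UMIs). Members and gene lists were chosen with earlier results of these data known. Same-numbered E60 and E70 libraries did not deviate together (r of −0.143, 0.0390 and −0.135), so the numbers were not taken to pair them. These deviations also hold the other differences between libraries of a stage, so they cannot show that a shared pool had no effect. Homeobox sequences were read from RefSeq's genome and annotation of Sscrofa11.1. Some sequences and marker genes are not reported here.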

Additional observations from a re-analysis of the deposited data

Results flagged for a closer look

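The adult libraries entered no test, and UMIs of the members were found in them above the 3 counts taken as the limit of detection. Adult_1 held 118 UMIs of LHX2, of which 90 were in 36 of 77 astrocyte and radial glia-like cells, at 83.2 CPM, against 3.45 CPM in its microglia-like cells. It held 46 UMIs of LHX1, and 44 of them were in 1 cell. This cell belonged to the Cajal-Retzius-like cluster, had 60089 UMIs against a median of 6893 in its library, and held 285 UMIs of RELN, 487 of CALB2, 92 of NDNF and 8 of TP73, with none of GAD1 or GAD2. It was not called a doublet, and only 2 of the 737 cells of Adult_1 were. The cell also held 4 of the 5 UMIs of LHX5, 6 of the 27 UMIs of LHX9 and 3 UMIs of LHX2. Adult_nc held 15 UMIs of LHX2 and 11 of LHX9, in 15 and 10 of its 2552 nuclei, with LHX2 at 14.95 and LHX9 at 9.97 CPM in its microglia-like cells.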

How the results depend on the processing

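Of 52 alternatives for the log2 fold changes of the members between E60 and E70, 48 kept the direction and the side of the threshold. DESeq2 kept the direction of LHX2 but gave it no p. The other 3 were LHX9, which was −1.53 with E70 replicates 1 and 2 left out together, and LHX2, which was −0.82 with E60 replicates 1 and 2 left out together, where the lone library of a stage was assumed to vary like those of the other stage, and 3.76 (adjusted p = 0.0137 by edgeR) without E60 replicate 3. Leaving out a library at a time gave −1.72 to −0.99 for LHX1, 0.12 to 3.76 for LHX2, −1.61 to −1.03 for LHX5 and 1.03 to 2.19 for LHX9. With the replicate number as a replicate block, LHX1 was −1.30, LHX2 2.25, LHX5 −1.38 and LHX9 1.16 (adjusted p = 0.307 each by edgeR), and 0 genes were called, with 1951 at an unadjusted p under 0.05. DESeq2 gave LHX1 an adjusted p of 0.0697. The number of genes called was 1502 higher and 971 lower by DESeq2, and ranged from 0 to 2897 higher and from 0 to 2687 lower when a library was left out, with 2897 and 2687 without E60 replicate 3 and 1205 and 248 without E70 replicate 3.

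For the class differences, the mean of LHX2 kept its direction in all 17 alternatives of each pair. That of LHX9 did so in 14 and 15 of 17. Not all alternatives were separate checks. Leaving out E60 replicates 1 and 2 changed nothing, since neither entered the test, and whole cells only gave the same values as leaving out E70 nuclei. The clusters with DLX genes could not change the values of glia-like against excitatory-like cells. At least 50 cells of each class left those of interneuron-like against excitatory-like cells unchanged. The values of LHX1 and LHX5 rest largely on the pseudocount and show nothing of their stability. With clusters found without batch correction, LHX1 turned to −2.94, LHX5 to −1.06 and LHX9 to −0.54 between astrocyte and radial glia-like and excitatory-like cells, and LHX1 to −0.80 between interneuron-like and excitatory-like cells. In the former pair LHX5 also turned to −0.49 and LHX9 to −0.11 at a pseudocount of 0.1, LHX5 to −0.12 with at least 50 cells of each class or with E70 replicates 1 and 2 left out together, and to −0.049 with whole cells only or without E70 nuclei, and LHX9 to −0.0020 with each cell thinned to 1000 UMIs. In the latter pair LHX9 turned to −0.037 when thinned and to −0.054 with clusters that hold DLX genes only. Leaving out a library gave 0.87 to 1.95 for LHX1, 0.73 to 0.82 for LHX2, −0.049 to 1.38 for LHX5 and 0.17 to 0.55 for LHX9 in the former pair, and 1.85 to 2.99, −2.45 to −2.02, 0.56 to 1.52 and 0.18 to 0.54 in the latter, and with 5 libraries the exact test cannot pass 0.05. Removing called doublets, leaving out E70 replicates 1 and 2, the clusters with DLX genes and leaving out the SLCO1C1-led cluster of high UMIs were chosen after the data were seen. The cause of these changes was not tested.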
